A study of Caenorhabditis elegans with 18 samples.

Results

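Small RNA of early Caenorhabditis elegans embryos that lack both SET-25 and NRDE-3 was compared with that of wild type embryos. The comparison uses 6 of the 18 libraries of the series, 3 of worms that carry the allele n5021 of set-25 (chromosome III) together with the allele tm1116 of nrde-3 (chromosome X), called the double mutant here, and 3 of N2 (Bristol), the wild type. The 3 libraries of each single mutant, called set-25 and nrde-3 and carrying the same alleles, are given beside them. Embryos were collected before the bean stage, 60 to 65 h after synchronised first larvae were plated. Each library stands for the small RNA of a whole population of embryos, so fewer cells that make a small RNA and less of it per cell cannot be told apart. Each strain has 3 numbered libraries although the protocol for growth speaks of 2 biological replicates, so that all p-values measure the spread between libraries. The mutated genes lie on chromosomes III and X, outside the regions covered, and neither the genotypes nor the stage of the embryos was checked here.

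NRDE-3 is an Argonaute protein of somatic cells that binds small interfering RNAs of the 22G class, made by RNA-dependent RNA polymerases on target transcripts, and carries them into the nucleus, where transcription of the matching gene is reduced. NRDE-3 that carries no small RNA stays in the cytoplasm. SET-25 is a methyltransferase that places methyl groups on lysine 9 of histone H3, a mark of silent chromatin at repeats and transposons.

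The values are whole numbers of reads in bins of 20 bp of genome build ce10, both strands and all read lengths together, over all of chromosome I and the first part of chromosome II, to position 5899055. Bins were summed to windows of 1000 bp, which is the unit of most results. A level is a normalised read count in CPM (reads scaled to a common library size) with TMM factors, and a change is a log2 fold change ± SE of the double mutant against N2 from edgeR's quasi-likelihood test. A window is said to rise or fall where its adjusted p, corrected over all windows tested, is under 0.05. The covered regions held 2829783, 4384593 and 4147419 reads in the N2 libraries and 4027213, 3999457 and 3515896 in the double mutant. Outside the right end of chromosome I, described next, they held 2184154 to 3264747 reads in N2 and 1258287 to 1643641 in the double mutant. Rank correlations of window levels (Spearman, across windows, which are not independent replicates) were 0.954 to 0.964 among N2 libraries, 0.933 to 0.944 among double mutant libraries and 0.905 to 0.927 between the strains.

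Of the shares of reads compared, the one that shifted most was that of the last 13 windows of chromosome I, called its right end, from position 15060020 to 15072423. This end of the chromosome carries the array of ribosomal RNA genes. It held 22.8%, 25.5% and 32.8% of the reads in N2 and 68.8%, 58.9% and 56.3% in the double mutant. Every double mutant library lay above every N2 library, and the means were 27.0% ± 5.15 and 61.3% ± 6.56 (SD, n = 3 in each strain), a difference of 34.3 percentage points. The covered part of chromosome II held 28.8%, 27.4% and 24.3% of the reads in N2 and 9.74%, 12.6% and 13.5% in the double mutant. Here the groups were apart in the other direction. Part of that difference follows from the denominator, since reads at the right end of chromosome I count in it. Among the reads outside that end, chromosome II held 37.3%, 36.9% and 36.2% in N2 and 31.2%, 30.7% and 30.8% in the double mutant, a drop of the mean from 36.8% ± 0.534 to 30.9% ± 0.261 (SD, n = 3). The exact two-sided permutation test gave p = 0.1 for each of the 3 shares, which is the smallest value that 3 against 3 libraries allow, and 0.1 after Benjamini-Hochberg adjustment over the 3.

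**Figure D1:**
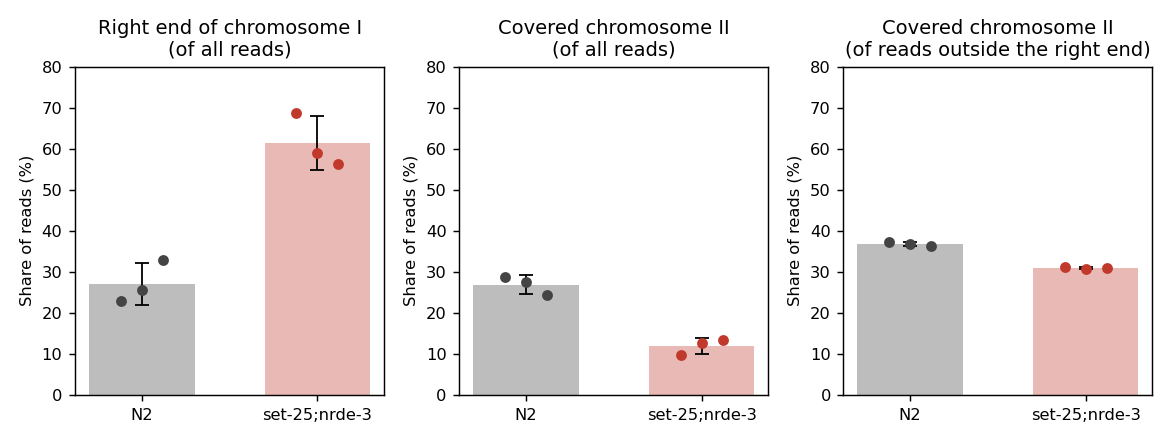
Share of reads (percent, y axis) in N2 and in the double mutant for the right end of chromosome I, for covered chromosome II, and for chromosome II among reads outside that end. Points are libraries, bars are means and error bars are SD (n = 3); the right end took 22.8% to 32.8% of reads in N2 and 56.3% to 68.8% in the double mutant, and the libraries of the strains do not overlap in any panel.

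The rise at the right end was not uniform over its windows. Of the 13 windows, 11 rose, by log2 fold changes of 1.44 to 2.43, and the last 2, at the very tip, fell. In the window chrI:15061020-15062019, N2 had 4517, 5068 and 5773 CPM and the double mutant 26396, 26879 and 29364 CPM (change of 2.43 ± 0.31, adjusted p = 1.76e-06). The adjoining tip windows went the other way, in chrI:15071020-15072019 from 145, 153 and 157 CPM in N2 to 91.8, 87.6 and 94.8 CPM (-0.73 ± 0.12, adjusted p = 0.000102), and in chrI:15072020-15072423 from 22.3, 32.6 and 29.5 CPM to 16.5, 15.1 and 14.2 CPM (-0.90 ± 0.17, adjusted p = 0.000669). In each of these 3 windows the strains did not overlap. The 3 windows with the most reads in N2 rose least. Of these, chrI:15064020-15065019 had 24922, 33907 and 40708 CPM in N2 and 128880, 75576 and 65710 CPM in the double mutant, a change of 1.44 ± 0.23 (adjusted p = 6.3e-05). In chrI:15070020-15071019, levels of 8523, 9671 and 13801 CPM in N2 stood against 71078, 48813 and 43502 CPM in the double mutant (2.35 ± 0.30, adjusted p = 1.77e-06). All 50 bins of that window that were tested rose. In chrI:15061020-15062019 only 6 of 36 bins tested rose, and 1 bin of 20 bp, chrI:15061100-15061119, held 43.3% of the window's reads in N2 and 46.1% in the double mutant.

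Both single mutants also had larger shares at this end than N2. The share was 46.0%, 54.5% and 32.9% in nrde-3 and 60.5%, 52.8% and 59.0% in set-25. The set-25 libraries thus spanned 52.8% to 60.5% and overlapped the double mutant, whose lowest library had 56.3%. The nrde-3 library with 32.9% stood apart from the other 2 of its strain.

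Across all 10730 windows tested, 604 rose in the double mutant (5.63%) and 389 fell (3.63%). Falls were fewer but larger. Of the falling windows, 67 changed at least 4-fold and 23 at least 8-fold, and of the rising windows 36 and 7, of which 8 and 0 lay at the chromosome I right end. The median log2 fold change was -0.92 among falls and 0.82 among rises. In the same test 2117 windows had an unadjusted p under 0.05. Outside the right end, the falling windows held 31.6%, 30.7% and 29.7% of the N2 reads and 15.6%, 13.7% and 13.7% of the double mutant reads. The rising windows held 10.5%, 11.1% and 11.3% of those reads in N2 and 18.2%, 18.5% and 18.8% in the double mutant. Since these windows were chosen by the same contrast, the shares describe their weight in the libraries and are no further test. Chromosome II had somewhat higher shares of called windows in both directions, with 194 rises (7.19% of its 2699 windows tested) and 133 falls (4.93%), against 410 rises (5.11%) and 256 falls (3.19%) of 8031 on chromosome I.

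The split between rises and falls rests on how the libraries are scaled. With library totals alone, in which the right end counts in full, the median change of all windows moved by -0.77 on the log2 scale, and 74 windows rose and 4311 fell. With totals of reads outside the right end and no TMM factors, a choice made after the data were seen, it moved by 0.14, and 979 rose and 270 fell. Rises made up 60.8% of the calls with TMM, 1.69% with library totals and 78.4% with totals outside the end. The other 4 groups of libraries share the estimate of spread in these counts. With N2, nrde-3, set-25 and the double mutant alone, 860 windows rose and 595 fell. Without N2 replicate 1 there were 384 rises and 255 falls.

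**Figure D2:**
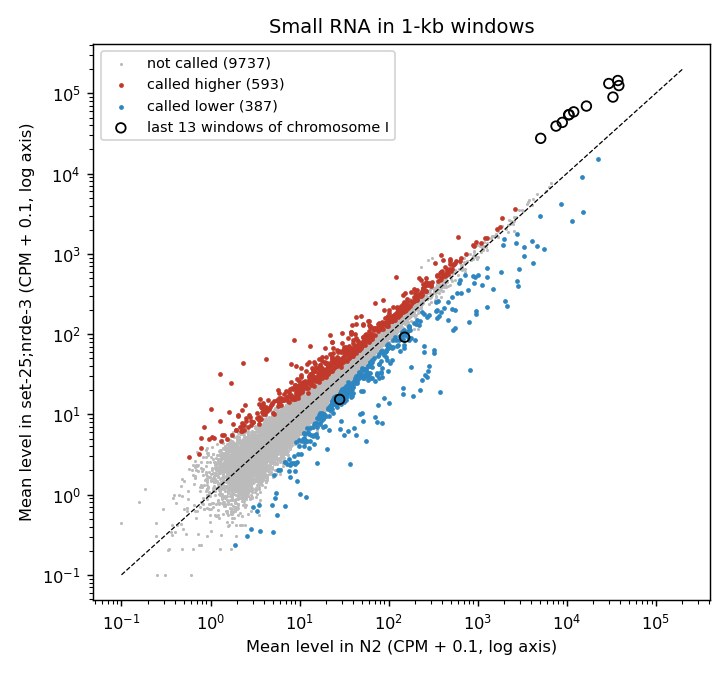
Mean level of each tested 1000-bp window in N2 (x axis) and in the double mutant (y axis), both in CPM + 0.1 on log axes, with equality as the dashed line. Red windows rose and blue windows fell (604 and 389 with those at the right end). Open circles are the last 13 windows of chromosome I, of which 11 lie far above the line and 2 below it. With library totals alone instead of TMM, 74 rose and 4311 fell.

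Windows with more reads were called more often. With the windows divided into 5 classes of equal size by mean level, 0.373% rose and 0.513% fell in the lowest class, up to 3.05 CPM, and 18% rose and 10.5% fell in the highest, from 28.3 CPM. The part of depth in these shares was not tested. Called and other windows were alike in how much of a window's reads its top bin held. The bin with most reads held a median 21.2% of the reads in rising windows, 21.3% in falling windows and 21.4% in windows not called. In 6.07% of rising, 9.82% of falling and 6.90% of other windows a single bin held at least 50% of the reads.

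The 15 largest falls ran from 8.31-fold to 23.1-fold, and 12 of them lay on chromosome II. That chromosome held 2699 of the 10730 windows tested and 133 of the 389 falls. Several of the 12 adjoin each other, so they are not 12 separate places. The largest fall was at chrII:311017-312016. It had 937, 788 and 729 CPM in N2 and 38.3, 31.1 and 37.1 CPM in the double mutant, a change of -4.53 ± 0.28 (adjusted p = 2.07e-12). Reads lay in all 50 of its bins in N2 and in 32 in the double mutant, and all 29 bins tested fell. Its neighbours fell too, chrII:310017-311016 from 275, 253 and 235 CPM to 41.6, 25.5 and 25.8 CPM (-3.05 ± 0.22, adjusted p = 4.38e-11) and chrII:312017-313016 from 93.4, 83.4 and 73.3 CPM to 10.7, 7.07 and 5.63 CPM (-3.44 ± 0.26, adjusted p = 9.22e-11). The fall therefore spanned 3 adjoining windows. That the strains did not overlap in any of them was a condition of the choice of the largest falls.

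In the next largest fall most reads came from 1 bin. The window chrII:2996017-2997016 had 404, 355 and 362 CPM in N2 and 23.1, 17.8 and 15.6 CPM in the double mutant (-4.32 ± 0.27, adjusted p = 2.07e-12), with 80.9% of its N2 reads in the bin chrII:2996397-2996416. That bin counted 1227, 1715 and 1449 reads in N2 and 37, 43 and 27 in the double mutant. All 4 bins of the window that were tested fell. The adjoining window chrII:2997017-2998016 had 3107, 2861 and 2633 CPM in N2 and 470, 324 and 403 CPM in the double mutant (-2.85 ± 0.23, adjusted p = 6.09e-10), and 95.1% of the reads of the 6 libraries in it lay in 1 bin. The largest falls thus included windows whose reads were spread over many bins and windows whose reads lay mostly in 1 bin.

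**Figure D3:**
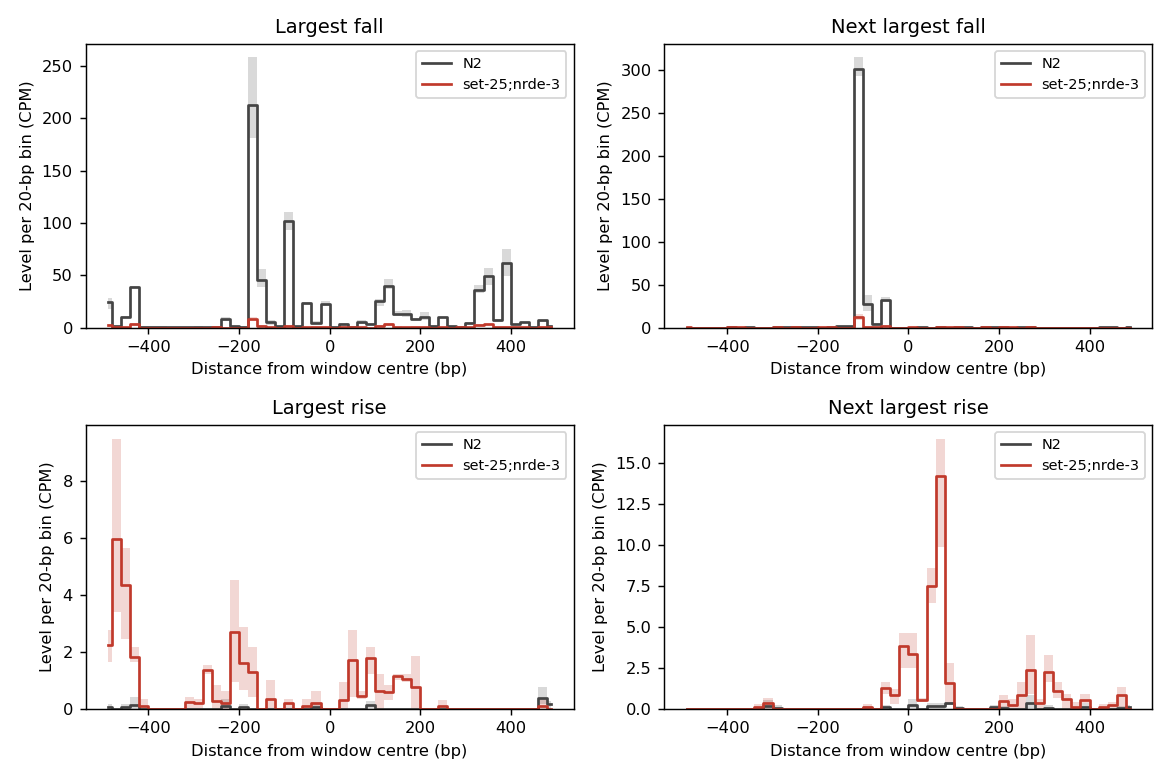
Level in each 20-bp bin (CPM, y axis) by distance from the window centre (bp, x axis) for the 2 largest falls (top) and the 2 largest rises (bottom); lines are means of 3 libraries and shading runs from the lowest to the highest library. In the largest fall N2 signal spreads over the window, in the next it stands mainly in 1 bin, and in both rises the double mutant signal covers several bins where N2 is near 0.

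A pair of windows at chrII:2136017-2138016 was the most abundant of the largest falls. The first, chrII:2136017-2137016, dropped from 2348, 2136 and 1932 CPM to 253, 191 and 227 CPM (-3.26 ± 0.18, adjusted p = 3.71e-13), with 18 of 18 bins tested lower. The second, chrII:2137017-2138016, dropped from 283, 277 and 247 CPM to 24.7, 30.8 and 30.8 CPM (-3.22 ± 0.16, adjusted p = 7.98e-14), but 1 of its 12 bins tested rose while 10 fell. Another pair, chrII:2660017-2661016 and chrII:2661017-2662016, had most reads on either side of its shared border. In the first the bin with most reads is the last, chrII:2660997-2661016, and in the second it is the first, chrII:2661017-2661036, which held 88.9% of the window's N2 reads. The first had 84.5, 38.8 and 43.6 CPM in N2, where replicate 1 stood above the other 2, and 2.88, 4.0 and 6.96 CPM in the double mutant (-3.55 ± 0.31, adjusted p = 1.94e-09). The second had 126, 148 and 165 CPM in N2 and 27.6, 11.7 and 14.9 CPM in the double mutant (-3.06 ± 0.35, adjusted p = 3.29e-07).

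The largest falls also included other windows on chromosome II. The window chrII:2095017-2096016 went from 209, 188 and 164 CPM to 18.1, 19.4 and 13.6 CPM (-3.45 ± 0.20, adjusted p = 1.09e-12), and chrII:3374017-3375016 from 250, 236 and 232 CPM to 23.5, 33.5 and 23.5 CPM (-3.14 ± 0.15, adjusted p = 4.55e-14). The neighbours chrII:3323017-3324016 and chrII:3324017-3325016 had 540 and 172 reads over the N2 libraries and 20 and 8 over those of the double mutant, and changed by -3.99 ± 0.40 (adjusted p = 3.08e-08) and -3.63 ± 0.72 (adjusted p = 0.000877). The latter had 0, 2.15 and 0.331 CPM in the double mutant, so its change rests on few reads.

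On chromosome I the largest falls were 3 windows far from each other. The window chrI:10913020-10914019 had 276, 207 and 189 CPM in N2 and 19.8, 20.6 and 20.5 CPM in the double mutant (-3.46 ± 0.17, adjusted p = 5.46e-14). All double mutant libraries were near 20 CPM. In chrI:13407020-13408019 N2 had 12.8, 8.46 and 9.08 CPM and the double mutant 0.824, 1.23 and 0.663 CPM (-3.40 ± 0.68, adjusted p = 0.000898), with reads in 47 bins of N2 and in 7 of the double mutant. The window chrI:12506020-12507019 went from 60.2, 81.1 and 83.8 CPM to 7.0, 10.8 and 5.96 CPM (-3.23 ± 0.23, adjusted p = 4.38e-11).

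The single mutants separate that last window from the others. In 14 of the 15 largest falls the mean level followed the order N2, set-25, nrde-3, double mutant from high to low. The ends of that order, N2 and the double mutant, were favoured by the choice of windows. The difference between nrde-3 and set-25 passed the test in 10 of the 15, with nrde-3 lower in 9 and higher in 1. Over all windows tested, 3.22% were lower and 5.05% higher in nrde-3 than in set-25. At chrII:311017-312016 set-25 had 325, 333 and 283 CPM and nrde-3 78.1, 36.9 and 138 CPM. The means of both lay between N2 and the double mutant, but the nrde-3 library with 36.9 CPM was within the double mutant range. At chrI:10913020-10914019 set-25 had 84.1, 101 and 92.2 CPM and nrde-3 23.0, 21.0 and 31.0 CPM, the lowest of them just above the highest double mutant library. The window chrI:12506020-12507019 was the exception. It had 91.1, 75.9 and 91.7 CPM in nrde-3, as much as in N2, and 4.19, 8.33 and 13.8 CPM in set-25, a range that holds the double mutant.

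Tested directly, the double mutant was lower than set-25 in 12 of these 15 windows (1.91% of all windows tested were lower in that comparison) and lower than nrde-3 in 5 (3.18%). These comparisons share the double mutant libraries by which the windows were chosen, and the counts are a description. At chrII:311017-312016 the difference from nrde-3 was -1.25 ± 0.27 (adjusted p = 0.00284) and that from set-25 was -3.15 ± 0.27 (adjusted p = 8.8e-09). At chrI:10913020-10914019 the difference from nrde-3 was -0.30 ± 0.20 (adjusted p = 0.468), and that from set-25 was -2.19 ± 0.18 (adjusted p = 3.46e-09). At chrI:12506020-12507019 the difference from nrde-3 was -3.42 ± 0.23 (adjusted p = 2.11e-11) and that from set-25 was -0.15 ± 0.30 (adjusted p = 0.904).

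**Figure D4:**
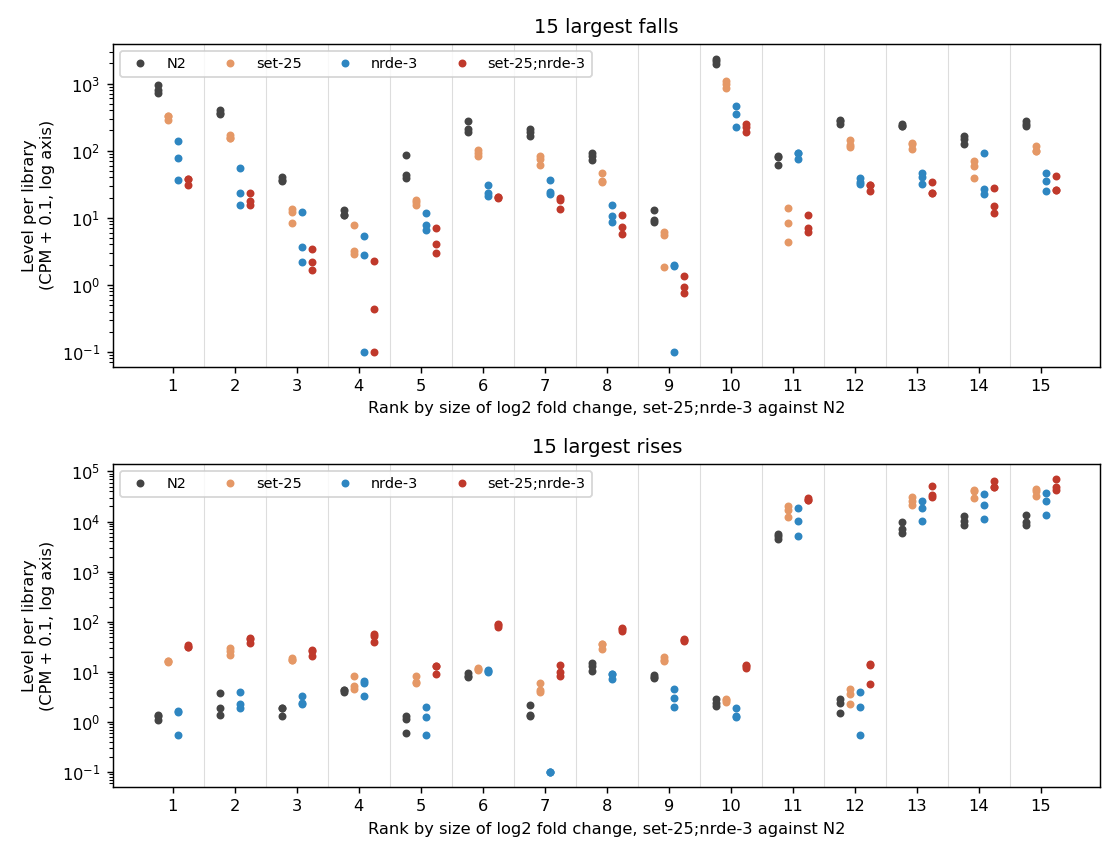
Level per library (CPM + 0.1, log axis) in N2, set-25, nrde-3 and the double mutant for the 15 largest falls (top) and the 15 largest rises (bottom), ordered by size of the log2 fold change of the double mutant against N2; each point is a library. In the falls the mean levels run from N2 over set-25 and nrde-3 to the double mutant, except at rank 11, chrI:12506020-12507019, and in the rises the double mutant lies highest and nrde-3 near or below N2 outside the 4 windows of the right end.

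The 15 largest rises ran from 5.11-fold to 26.6-fold. Of these windows 2 lay on chromosome II and 4 in the right end of chromosome I, and the other windows had a mean of 12.9 CPM or less in N2. The largest, chrI:14679020-14680019, had 1.28, 1.21 and 1.01 CPM in N2 and 33.8, 30.8 and 31.1 CPM in the double mutant (4.73 ± 0.28, adjusted p = 9.75e-13). Those levels stand for 17 and 276 reads over 3 libraries. Reads lay in 9 bins in N2 and in 28 in the double mutant. The window before it, chrI:14678020-14679019, rose from 0.512, 1.04 and 1.21 CPM to 12.8, 8.92 and 12.9 CPM (3.55 ± 0.43, adjusted p = 7.21e-07), and its top bin lies close to the border with it.

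The window chrI:11495020-11496019 rose from 1.28, 3.62 and 1.82 CPM to 47.0, 38.1 and 46.0 CPM (4.19 ± 0.27, adjusted p = 3.72e-12). On chromosome II, chrII:2269017-2270016 rose from 1.79, 1.21 and 1.82 CPM to 25.5, 20.6 and 26.8 CPM (3.91 ± 0.26, adjusted p = 8.36e-12). In these 3 windows all set-25 libraries lay well above N2, while the nrde-3 libraries overlapped N2 or, at chrII:2269017-2270016, lay slightly above it. Levels of set-25 were 16.1, 15.6 and 16.2 CPM at chrI:14679020-14680019, 25.5, 21.3 and 30.3 CPM at chrI:11495020-11496019 and 17.4, 18.7 and 16.9 CPM at chrII:2269017-2270016. Levels of nrde-3 in the same windows were 0.451 to 1.55, 1.80 to 3.84 and 2.17 to 3.25 CPM.

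A different pattern appeared at chrI:10630020-10632019, where neither single mutant came near the double mutant. The window chrI:10630020-10631019 had 4.35, 3.80 and 4.24 CPM in N2 and 39.1, 56.0 and 52.3 CPM in the double mutant (3.58 ± 0.27, adjusted p = 8.16e-11). Its levels were 4.54, 8.07 and 5.21 CPM in set-25 and 3.16, 6.50 and 5.89 CPM in nrde-3. The window chrI:10631020-10632019 had 9.47, 7.94 and 8.07 CPM in N2 and 77.0, 90.1 and 84.8 CPM in the double mutant (3.31 ± 0.15, adjusted p = 2.13e-14). There set-25 had 11.2, 10.9 and 11.6 CPM and nrde-3 9.93, 10.9 and 10.5 CPM. The double mutant exceeded set-25 by 2.90 ± 0.15 (adjusted p = 7.84e-13) and nrde-3 by 3.0 ± 0.16 (adjusted p = 1.83e-13) on the log2 scale. The window chrI:11814020-11815019 was of the same kind at low level. It had 2.30, 2.76 and 2.02 CPM in N2, 2.44, 2.60 and 2.76 CPM in set-25, 1.80, 1.18 and 1.24 CPM in nrde-3 and 13.2, 12 and 13.9 CPM in the double mutant (2.44 ± 0.56 against N2, adjusted p = 0.00401). Its neighbour chrI:11813020-11814019 was less clear, with 14.4, 5.54 and 13.9 CPM in the double mutant. There set-25 had 3.49, 4.42 and 2.15 CPM and nrde-3 0.451, 3.84 and 1.86 CPM, so that double mutant replicate 2 lay close to both single mutants.

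At chrI:11169020-11176019 a run of 7 adjoining windows rose, with 269, 280 and 285 CPM in all in N2 and 712, 755 and 760 CPM in the double mutant. Here set-25 lay between them, with 412, 418 and 406 CPM, and nrde-3 lay below N2, with 211, 228 and 210 CPM. In its window chrI:11173020-11174019, N2 had 8.45, 7.60 and 7.67 CPM, nrde-3 4.51, 2.95 and 1.86 CPM, set-25 17.1, 19.5 and 16.5 CPM and the double mutant 42.4, 44.3 and 41.7 CPM (2.44 ± 0.24 against N2, adjusted p = 1.94e-08). The window chrII:664017-665016 had no read in any nrde-3 library, against 23 reads over N2 and 93 over the double mutant (2.75 ± 0.64, adjusted p = 0.00522).

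In all 15 of the largest rises the double mutant had the highest mean, followed by set-25 and then nrde-3. The place of the double mutant was favoured by the choice of windows. The difference between nrde-3 and set-25 passed the test in 7 of the 15, with nrde-3 lower in all 7 (3.22% of all windows tested were lower). The double mutant was higher than nrde-3 in 15 of 15 (3.77% of all windows tested were higher in that comparison) and higher than set-25 in 8 (3.77%). As for the falls, these counts share the double mutant libraries with the choice of windows.

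The nrde-3 and set-25 libraries share no library with the comparison of the double mutant with N2, so their difference is a separate measurement of the called windows, although scaling and spread come from 1 fit. It was chosen with the results above known. Of all windows tested, 5.05% were higher and 3.22% lower in nrde-3 than in set-25. Outside the right end of chromosome I, the called windows were read by the size of their change in the double mutant.

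Large and moderate falls differed in which single mutant was lower. Of the 67 windows that fell at least 4-fold, 30 were lower in nrde-3 than in set-25 (44.8%) and 8 were higher (11.9%). Of the 104 that fell 2-fold to 4-fold, 9 were lower (8.65%) and 37 higher (35.6%), and of the 216 that fell less than 2-fold, 13 were lower (6.02%) and 42 higher (19.4%). The median log2 difference, nrde-3 minus set-25, was -0.80, 0.10 and 0.06 in the 3 classes, beside -0.01 over all windows tested. In the class of at least 4-fold the median level was 83.4 CPM in N2, 38.4 CPM in set-25, 34.8 CPM in nrde-3 and 12.9 CPM in the double mutant. In the class of 2-fold to 4-fold it was 24.9 CPM in N2, 14.2 CPM in set-25, 23.9 CPM in nrde-3 and 9.81 CPM in the double mutant. The part of depth in these shares was not tested either. Adjoining windows are counted singly, and 36 of the 67 lay in 7 segments of 100 kb, so a few places can weigh heavily in the counts. Without nrde-3 replicate 3, an alternative added after the data were seen, 2.49% of all windows tested were lower in nrde-3 than in set-25 and 4.53% higher. In that fit 40 of the 67 were lower (59.7%) and 7 higher (10.4%), and of the 104, 15 were lower (14.4%) and 33 higher (31.7%).

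Among rises of 2-fold or more, windows lower in nrde-3 than in set-25 outnumbered those that were higher, and among smaller rises they did not. Of the 28 windows that rose at least 4-fold outside the right end, 11 were lower in nrde-3 than in set-25 (39.3%) and 1 was higher. Of the 192 that rose 2-fold to 4-fold, 58 were lower (30.2%) and 13 higher (6.77%). Of the 373 that rose less than 2-fold, 61 were lower (16.4%) and 60 higher (16.1%). Without nrde-3 replicate 3 the counts were 10 lower and 2 higher in the first class, 48 and 15 in the second and 40 and 64 in the third.

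**Figure D5:**
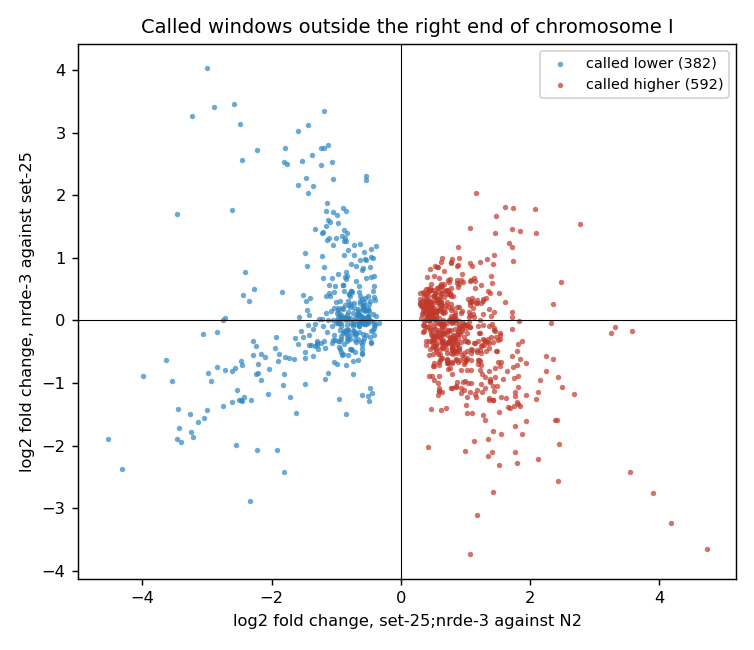
Log2 fold change of the double mutant against N2 (x axis) and of nrde-3 against set-25 (y axis) for windows called in the former, outside the right end of chromosome I; each point is a window, and windows with 3 reads or fewer in a strain are left out. The largest falls, on the left, lie mostly below 0 on the y axis with a smaller group well above it, and of the 67 windows that fell at least 4-fold 30 were lower and 8 higher in nrde-3.

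By absolute amount, the window chrII:3306017-3307016 gave up the most reads. It had 17018, 15212 and 14146 CPM in N2 and 3769, 3098 and 3178 CPM in the double mutant (-2.21 ± 0.19, adjusted p = 1.55e-09), and all 33 bins tested fell. Its levels were 7789, 8275 and 7315 CPM in set-25 and 3909, 2615 and 6492 CPM in nrde-3. The window chrII:1820017-1821016 dropped from 11968, 11467 and 11446 CPM to 2690, 2503 and 2554 CPM (-2.17 ± 0.16, adjusted p = 1.05e-10), with 33 of 36 bins tested lower. Near chrII:2091017-2095016, the window chrII:2094017-2095016 dropped from 4855, 4079 and 3754 CPM to 909, 697 and 695 CPM (-2.46 ± 0.22, adjusted p = 4.2e-09), and chrII:2091017-2092016 from 5373, 4449 and 4160 CPM to 1430, 1171 and 1192 CPM (-1.88 ± 0.18, adjusted p = 1.13e-08). Broad loss over many bins was the form in all 4 of these windows.

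In 3 other abundant falls nearly all reads came from 1 bin. At chrII:2452017-2453016 a single bin held 99.9% of the reads, and the level went from 20069, 24318 and 22745 CPM in N2 to 17903, 13726 and 13600 CPM, a change of only -0.57 ± 0.13 (adjusted p = 0.00468). Without N2 replicate 2 its change of -0.49 no longer passed the test. At chrI:6172001-6173000, with 99.8% of reads in 1 bin, the level fell from 6650, 5257 and 4854 CPM to 1067, 1145 and 1250 CPM (-2.28 ± 0.32, adjusted p = 9.47e-06). At chrI:1738001-1739000, with 99.9% in 1 bin, it fell from 3833, 4092 and 4181 CPM to 1662, 1485 and 1245 CPM (-1.46 ± 0.27, adjusted p = 0.000377). In nrde-3 the levels in these last 2 windows were 1583, 1127 and 4349 CPM and 2321, 1241 and 4936 CPM, with replicate 3 highest by far. The neighbours chrI:2149001-2150000 and chrI:2150001-2151000, whose top bins held 60.1% and 21.2% of the reads, fell less, from 7991, 8994 and 9287 CPM to 4845, 3923 and 3739 CPM (-1.07 ± 0.16, adjusted p = 2.18e-05) and from 14532, 14876 and 15151 CPM to 11183, 7930 and 8433 CPM (-0.69 ± 0.17, adjusted p = 0.00637). For chrI:2150001-2151000 the change of -0.60 without double mutant replicate 2 missed the threshold.

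Rises in abundant windows outside the right end were smaller in fold. In absolute amount the largest was chrI:13979020-13980019, with 580, 638 and 574 CPM in N2 and 1563, 1656 and 1668 CPM in the double mutant (1.45 ± 0.09, adjusted p = 6.76e-12), and 32 of 46 bins tested higher. Both single mutants lay between, with 982, 940 and 889 CPM in set-25 and 857, 897 and 772 CPM in nrde-3. At chrI:5271001-5272000 the level rose from 126, 120 and 116 CPM to 477, 529 and 547 CPM (2.10 ± 0.13, adjusted p = 2.07e-12), and 19 of 23 bins tested rose. There set-25 alone reached 616, 585 and 589 CPM, above all double mutant libraries, while nrde-3 had 259, 240 and 253 CPM. The difference of the double mutant from set-25 was -0.20 ± 0.12 (adjusted p = 0.475). At chrI:11977020-11978019 the double mutant libraries had 539, 693 and 1644 CPM and N2 340, 333 and 482 CPM (1.32 ± 0.28, adjusted p = 0.00171), a rise carried mainly by replicate 3, without which the change was 0.68 and did not pass.

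The other 7 abundant rises were of 1.23-fold to 1.47-fold, and under scaling to library totals alone the log2 fold changes of all 7 were negative. In edgeR's test with that scaling, adjusted p was 0.0435 at chrI:11069020-11070019 and 0.045 at chrI:4464001-4465000. It was 0.0928 to 0.337 in the others, which were then not called in either direction. Of the 7 abundant rises, 4 also lost their call when a library was left out. The window chrI:11069020-11070019 lost it in each of the 6 omissions (adjusted p of 0.0555 to 0.226 in edgeR's test), chrI:4464001-4465000 in 5, chrII:3371017-3372016 in 4 and chrII:3500017-3501016 in 1. An example is chrII:1847017-1848016, with 2502, 2675 and 2745 CPM in N2 and 3657, 3716 and 3634 CPM in the double mutant (0.47 ± 0.09, adjusted p = 0.000698, and -0.30 with library totals alone). Their direction thus depends on the scaling. All 15 of the largest rises and all 15 of the largest falls kept their direction with library totals alone. These windows were chosen for large changes, the rises at a log2 fold change of 2.35 or more. The median shift of -0.77 with library totals could not turn such rises and only deepens falls, so this was fixed by the choice.

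Some called windows adjoined each other. Rises formed 125 runs of at least 2 windows that held 339 of the 604 (56.1%), the right end included. Falls formed 71 runs that held 192 of the 389 (49.4%). No such share was computed for other windows of like level, so these shares are a description. Reads that cross a border of the grid can also give calls in 2 adjoining windows. The longest run of falls, chrI:13404020-13413019, had 9 windows, with 7174, 6480 and 6209 CPM in all in N2 and 1722, 1747 and 1680 CPM in the double mutant. Levels were 3368, 3369 and 3057 CPM in set-25 and 2233, 1859 and 2695 CPM in nrde-3. Within it the window chrI:13410020-13411019, at a mean of 2023 CPM in N2 and 257 CPM in the double mutant (-2.98 ± 0.16, adjusted p = 2.62e-13), had 34 of 38 bins tested lower, the most of any window. Of all 38100 bins tested, 1068 fell (2.8%) and 842 rose (2.21%), and 36 windows with 10 or more falling bins held 627 of the 1068. Rises made up 44.1% of these calls with TMM, 9.34% with library totals alone (419 rose and 4069 fell) and 54.8% with totals outside the right end (1055 rose and 869 fell). In the right end of chromosome I 372 of 545 bins tested rose (68.3%), against 1.25% of those elsewhere.

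The run chrII:3302017-3308016, of 6 windows, includes the fall with the largest difference in CPM and had 21478, 19060 and 17720 CPM in N2 and 4631, 3905 and 3926 CPM in the double mutant. A further run close by, chrII:3313017-3319016, had 121, 104 and 99.1 CPM in N2 and 24.7, 17.2 and 12.6 CPM in the double mutant. Both belong to a stretch of chromosome II between 3.3 and 3.4 Mb in which 14 of 64 windows tested fell at least 4-fold, from 22452 CPM to 4683 CPM in all. Over all windows tested, 67 of 10730 fell that much. These 67 lay in 29 segments of 100 kb, and 7 of these segments, with 3 or more each, held 36 of them. The stretch of chromosome I from 13.4 to 13.5 Mb held 5, and those of chromosome II from 0.3 to 0.4 Mb and of chromosome I from 12.5 to 12.6 Mb held 4 each. The 28 rises of that size outside the right end were spread over 19 segments.

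Between 12.5 and 12.6 Mb on chromosome I the single mutants had the order of the exceptional window described above. The run chrI:12567020-12573019, of 6 windows, had 959, 1093 and 1043 CPM in N2, 1260, 1228 and 1093 CPM in nrde-3, 521, 504 and 463 CPM in set-25 and 686, 673 and 686 CPM in the double mutant. The double mutant lay below all N2 libraries but above all set-25 libraries. The run chrI:7778001-7784000, also of 6 windows, had 7127, 7134 and 7352 CPM in N2 and 4526, 3667 and 3892 CPM in the double mutant, with 5144, 5036 and 4583 CPM in set-25 and 5343, 4295 and 6497 CPM in nrde-3.

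The longest run of rises outside the right end, chrI:14882020-14894019, had 12 windows with 1937, 1945 and 1994 CPM in N2 and 3144, 3070 and 3049 CPM in the double mutant. Here set-25 had 2591, 2525 and 2509 CPM and nrde-3 2066, 1998 and 2137 CPM. In the next, chrI:10266020-10276019, of 10 windows, the single mutants had the other order. N2 had 2037, 2232 and 2296 CPM, set-25 2350, 2102 and 1985 CPM, nrde-3 2878, 3147 and 3089 CPM and the double mutant 3576, 3447 and 3267 CPM. Shorter runs at chrI:3631001-3637000 and chrI:13985020-13990019 rose from means of 3442 ± 42.8 and 1415 ± 21.6 CPM to 4421 ± 117 and 2096 ± 45.3 CPM (SD, n = 3). Under scaling to library totals alone the summed levels of these 4 runs were lower in the double mutant than in N2, and that of the run of 7 windows at chrI:11169020-11176019 was still higher.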

How the data were processed

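The data are 1 table of read counts, deposited by the authors, for 1048575 bins of 20 bp on build ce10 and 18 libraries, 3 for each of 6 strains. All 18 value columns were matched to samples by name, and 0 were left over. Per the labels' protocols, RNA was purified with a Norgen kit and treated with TAP, an enzyme that lets small RNAs with triphosphate or capped ends be ligated, and libraries were made with a QiaSeq kit and read as single reads of 50 bases. Per the series' design text, adapters were clipped and reads collapsed with FASTX tools and mapped with QuasR to WS220, with versions not stated. Collapsing merges identical reads, and how their numbers were restored, or whether molecular identifiers were used, is not given in the sources used here. That text also speaks of scaling to total reads and of subsets by length, which the deposited whole-number counts do not show.

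Counts were summed to 20973 windows of 1000 bp on the bin grid. All 18 libraries were fitted with a coefficient per strain in edgeR 4.0.16 (filterByExpr with a minimum count of 10, TMM, glmQLFTest, Benjamini-Hochberg adjusted p under 0.05), in R 4.3.3. Library totals are those of the covered regions. The SE was computed as the absolute log2 fold change over the square root of the F statistic. The procedure was run on simulated counts with known changes. Apart from these changes all simulated libraries had the same mean profile, so a shift like that at the right end was not tested. Shares were compared by exact permutation tests in scipy 1.17.1. Pandas 2.3.3 and matplotlib 3.10.9 were used for tables and plots. The settings tried were DESeq2 1.42.0, RLE factors, library totals, limma 3.58.1 (voom with quality weights), other filters, fewer libraries in the fit, a replicate block, a grid shifted by 500 bp, omission of the right end and each library left out.

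Named windows are the 15 largest rises and falls among called windows whose larger group mean was over the median of all windows tested (9.77 CPM) and whose groups did not overlap, the 10 largest rises and falls by difference in CPM outside the right end, the last 13 windows of chromosome I and the 5 longest runs each way. A window with most falling bins was named with its run. The comparison, the windows and the rules were chosen with earlier results of these data known. Reads may include PCR copies of a molecule. The annotation at hand was of another build, so no gene names or sequences were used here.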

Additional observations from a re-analysis of the deposited data

How the results depend on the processing

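Of 604 rising and 389 falling windows with the main settings, the counts were 585 and 402 with RLE factors, 624 and 401 with DESeq2, 499 and 399 with no filter, 522 and 401 with a minimum count of 100, 602 and 397 on the shifted grid and 579 and 403 without the right end. They were 74 and 4311 with library totals alone, 979 and 270 with totals outside the right end, 824 and 616 with N2 and the double mutant alone, 860 and 595 with 12 libraries, 1021 and 618 with voom, and 231 and 171 at 2-fold or more. Leaving out each library gave 384 to 478 rises and 255 to 307 falls. Of 842 rising and 1068 falling bins, the counts were 419 and 4069 with library totals, 1055 and 869 with totals outside the right end, 548 and 809 with no filter, 498 and 936 with a minimum count of 100, 1454 and 1763 with 6 libraries, 1413 and 1674 with 12, 496 and 1013 without the right end, which itself held 372 of the rising bins, and 1720 and 1767 with voom. With the replicate block 568 windows rose and 354 fell, and 780 bins rose and 1006 fell. Deviations of N2 and double mutant libraries with the same number had correlations of -0.074, -0.0094 and -0.0056, and no library correlated best with its own number. These values show no pairing by number, but deviations from the mean of 3 libraries cannot decide whether there is one. Of the named windows tested under the block, the rise at chrI:11069020-11070019 lost its call. Without the 100 bins with most reads, the difference in the share of chromosome II was -12.1 points in place of -14.9, and among reads outside the right end -5.27 in place of -5.89. With library totals alone, the log2 fold changes of 7 abundant rises were -0.48 at chrI:11069020-11070019, -0.23 at chrI:13780020-13781019, -0.26 at chrI:3604001-3605000, -0.47 at chrI:4464001-4465000, -0.30 at chrII:1847017-1848016, -0.39 at chrII:3371017-3372016 and -0.26 at chrII:3500017-3501016. The log2 ratios of runs were then -0.12 at chrI:14882020-14894019, -0.13 at chrI:10266020-10276019, -0.42 at chrI:3631001-3637000 and -0.21 at chrI:13985020-13990019. These changes follow from the scaling, which lowers the double mutant by a median of 0.77. The cause of the other shifts was not tested. Outside the right end the double mutant libraries held 1258287 to 1643641 reads, and the part of depth in the calls was not tested.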
